A study of Mus musculus with 8 samples.

Results

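The Hox cluster genes were taken as every mouse protein-coding gene whose symbol is Hoxa, Hoxb, Hoxc or Hoxd followed by a number. This gave 39 genes of 21627 coding genes on the autosomes and X, with 11 in the Hoxa cluster, 10 in Hoxb, 9 in Hoxc and 9 in Hoxd. Accessible chromatin around them was read from ATAC-seq, in which a transposase cuts and tags open DNA, in 2 samples of unstimulated mouse dendritic cells labelled CD8-positive. One label calls their source spleen and another calls them a cell line, and no label says whether the replicates were separate cultures, so their differences may be technical. The other 6 samples of the series, ChIP-seq for IRF3 after poly(I:C), IRF5 after CpG oligonucleotide and IRF9 after interferon-beta (90 min each), were not analysed here.

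Hox genes encode homeodomain transcription factors that give cells their position along the head-to-tail axis. Within a cluster they lie in the order in which they act, all read from the same strand, with anterior genes (low numbers) at one end and posterior genes (high numbers) at the other, and genes of the same number in different clusters are paralogs. In blood, members such as Hoxa9, Hoxa10 and Hoxb4 are known from stem and progenitor cells, and Polycomb proteins keep the clusters silent in many differentiated cells. Neither Hox transcripts nor Polycomb marks were measured here.

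The peak lists hold 50950 regions in replicate 1 and 58319 in replicate 2, and a shared region is the whole stretch spanned by peaks of both replicates that overlap by at least 1 bp. At least 7 reads piled up at the highest-scoring summit of every replicate 1 peak, and at least 9 at that of every replicate 2 peak. A gene without a region thus had none detectable at this depth and threshold. As a check of the label, 11 of 12 marker genes of type 1 conventional dendritic cells (cDC1) had a shared region inside or within 1 kb of an end, with the highest fold enrichments (summit reads divided by local background, as the authors give it) at Flt3 and Cadm1. The exception was Cd8a, whose nearest shared region lay 4371 bp away. Over all coding genes the share on this measure was 60.0%. The same measure was met by 3 of 3 plasmacytoid markers, 3 of 3 T cell markers and 1 of 3 B cell markers. Among stem and progenitor markers it was 1 of 4, and among neutrophil markers 0 of 3. With that share and sets this small, the counts check the label only weakly. The part of other cell types in the Hox regions was not tested.

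Hox genes had accessible sites in their neighbourhood but seldom at their own ends. A shared region lay inside or within 50 kb of 37 of the 39 Hox genes (94.9%), against 79.5% of all coding genes and 83.7% of the 13900 coding genes within the Hox length range of 1784 to 44009 bp. Within 20 kb the order turned, with 27 Hox genes (69.2%) against 72.6% of all coding genes. Counted at 50 kb by the peaks of a single replicate, it was 38 genes with replicate 1, against 80.1% of all coding genes, and 37 with replicate 2, against 82.1%. With the distance cut to 1 kb of an end, 11 Hox genes had one (28.2%), against 60.0% of all coding genes and 61.7% of those of Hox length. Inside the gene it was 9 Hox genes, against 57.5% of all coding genes. Hox genes are shorter, with a median of 3737 bp, which leaves less room for a region inside. The median was 13120 bp for the coding genes of Hox length and 17330 bp for all coding genes, so neither set is matched for length. A region within 1 kb of an end, on its outer or inner side, was found for 5 Hox genes (12.8%), against 47.8% of all coding genes. Among them were Hoxa4, Hoxb4, Hoxb8 and Hoxc10. Regions deeper inside a gene were left aside in this count. The median distance from a Hox gene to its nearest shared region was 6581 bp, against 0 bp over all coding genes. Neighbouring Hox genes share regions, so these shares describe 4 loci rather than 39 separate genes. Among the better-scoring 50% of each list, shared regions within 50 kb were left for 19 Hox genes (48.7%), below the 72.0% of all coding genes.

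**Figure D1:**
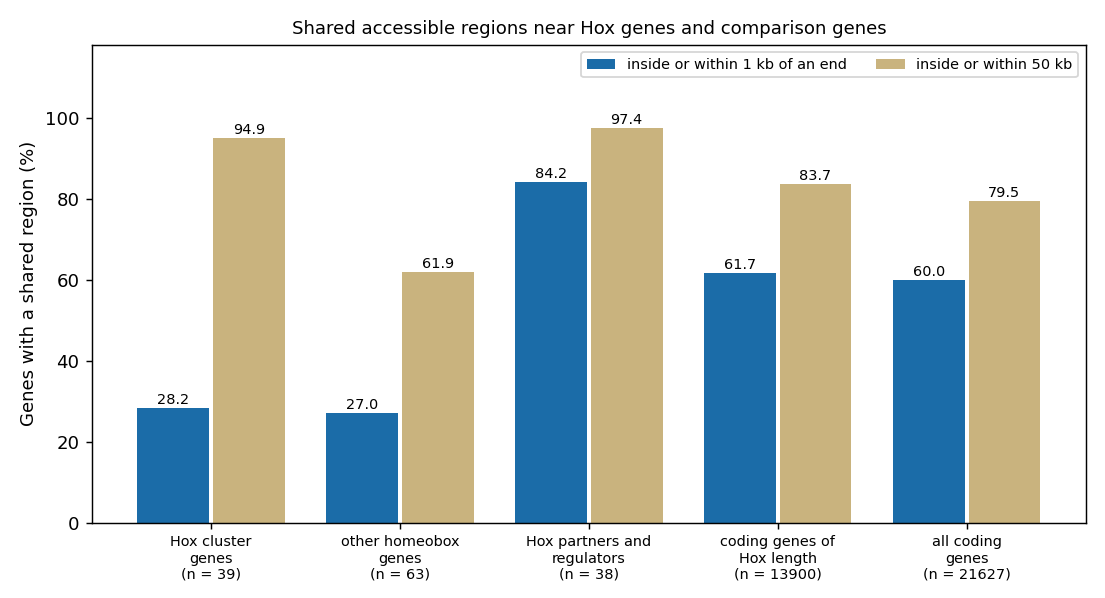
Share of genes (%, vertical axis) with a shared accessible region inside or within 1 kb of an end (blue) and inside or within 50 kb (sand), for Hox genes and 4 comparison sets, with the number of genes under each name. Hox genes stand at 28.2% and 94.9%, and all coding genes at 60.0% and 79.5%.

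The 4 loci held 20 shared regions inside the clusters or within 50 kb, out of 44365 in the whole genome. The Hoxa locus had 7, Hoxb 3, Hoxc 9 and Hoxd 1. Of these, 17 lay between the first and last gene of a cluster, which is 3.46 per 100 kb, and 3 lay in the flanks, 0.75 per 100 kb, against 1.68 per 100 kb over the autosomes and X. By cluster the density inside was 5.69 per 100 kb in Hoxa, 1.73 in Hoxb, 6.05 in Hoxc and 1.03 in Hoxd. Hoxa and Hoxc thus stood above the genome's density, Hoxb near it and Hoxd below it. That density is over whole chromosomes, with the stretches far from genes included. Counted per gene, the median number of shared regions within 50 kb was 3 for Hox genes, against 5 for all coding genes. In the better-scoring 50% of each list, 2 regions were left inside Hoxa, 1 in Hoxb, 1 in Hoxc and 0 in Hoxd. A further 4 peaks near Hox genes were found in replicate 1 alone and 2 in replicate 2 alone. For Hoxb, these raise the count to 5 with the peaks of replicate 1, 4 with those of replicate 2 and 6 with either.

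**Figure D2:**
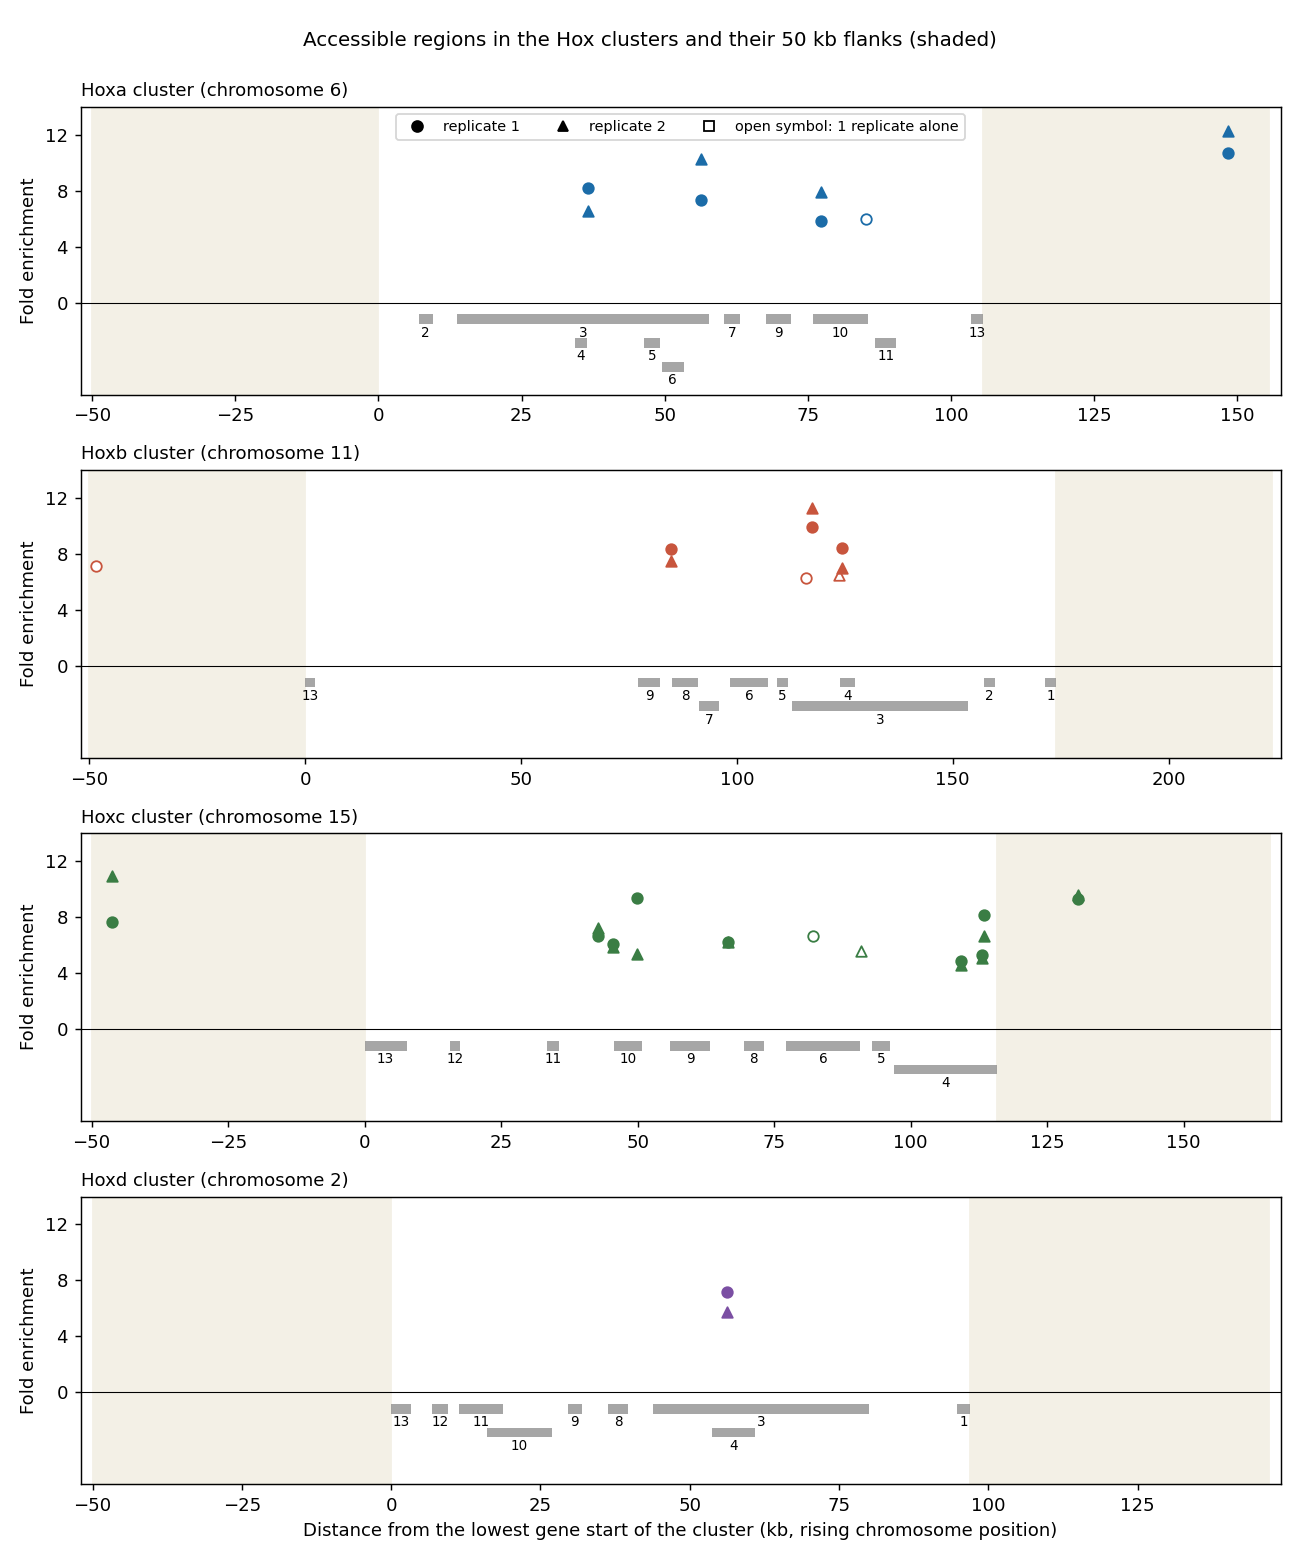
Fold enrichment of each peak (vertical axis) against its distance in kb from the lowest gene start of the cluster (horizontal axis), with a panel for each cluster, replicate 1 as circles and replicate 2 as triangles, filled where the region is shared and open where 1 replicate alone has it. Grey bars are the genes, marked by their paralog number, and shading marks the 50 kb flanks, where 3 of the 20 shared regions lie; 1 gene and the regions nearest to it are not drawn.

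The Hox regions were of middling to low strength in the lists. Of the 24 replicate 1 peaks near Hox genes, 20 were shared (83.3%, exact Clopper-Pearson 95% interval 62.6 to 95.3, counting error only), against 90.0% of all its peaks. In replicate 2 it was 20 of 22 (90.9%, interval 70.8 to 98.9), against 76.5% of all its peaks. Over the 20 shared regions the authors' fold enrichment had a median of 7.60 in replicate 1 and 7.10 in replicate 2, against 7.22 and 7.59 over all shared regions. Their median width was 156.5 bp, against 198 bp over all shared regions. The Hox peaks held 9 to 22 reads at their highest-scoring summits in replicate 1 and 12 to 28 in replicate 2. Only 6 of the 20 scored above the list median in both replicates, and 7 were at or below it in both.

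**Figure D3:**
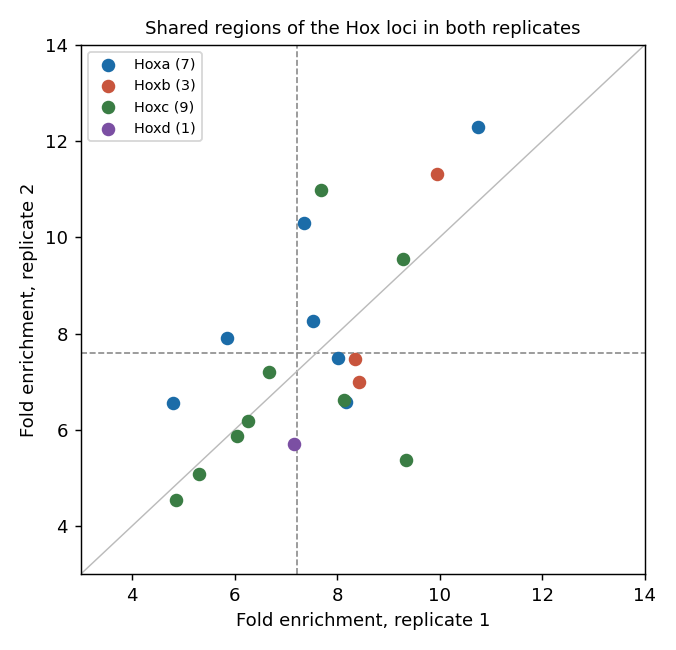
Fold enrichment in replicate 1 (horizontal axis) and replicate 2 (vertical axis) of the 20 shared regions at the Hox loci, coloured by cluster, with the number of regions in the legend. Dashed lines are the medians over all shared regions, 7.22 in replicate 1 and 7.59 in replicate 2, and the grey diagonal marks equal values; 11 regions lie on the replicate 1 side.

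In the Hoxa cluster (chromosome 6, minus strand) single sites lay at Hoxa3, Hoxa4 and Hoxa10. Hoxa4, an axial patterning gene, had a region 200 bp beyond its 5′ end (chr6:52191903-52192032) with 8.17 in replicate 1 and 6.59 in replicate 2, which also lies within the long gene model of Hoxa3. Hoxa3, needed to form the thymus and parathyroid, had a region of its own (chr6:52211681-52211807), 1260 bp downstream of its start, with 7.35 in replicate 1 and 10.3 in replicate 2. Hoxa10, a regulator of uterine and blood progenitor development, had a region inside it (chr6:52232570-52232711) with 5.86 in replicate 1 and 7.90 in replicate 2. A second peak in Hoxa10, 278 bp from its 5′ end, was listed in replicate 1 alone (5.97, 9 reads at the summit). None of Hoxa2, Hoxa5, Hoxa6, Hoxa7, Hoxa9, Hoxa11 and Hoxa13 had a shared region inside or within 1 kb. Hoxa9, the gene of the cluster best known from blood progenitors and leukaemia, was 5200 bp from the nearest one, and Hoxa13, a limb and urogenital gene, was farthest at 26142 bp. The strongest region of the locus lay outside the cluster, 42696 bp beyond Hoxa13 (chr6:52303576-52303745), with 10.7 in replicate 1 and 12.3 in replicate 2.

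The Hoxb cluster (chr11:96194316-96368254, plus strand) had its 3 shared regions in its middle. Hoxb3, a hindbrain gene, held the strongest (chr11:96311572-96311784), with 9.95 in replicate 1 and 11.3 in replicate 2. Hoxb4, whose overexpression expands blood stem cells in mice, had a region 293 to 471 bp downstream of its start (chr11:96318560-96318738), with 8.43 in replicate 1 and 7.001 in replicate 2. It lies inside the long Hoxb3 gene model as well. Hoxb8, used in engineered form to immortalise mouse myeloid progenitors, had a region 378 bp beyond its 5′ end (chr11:96278913-96279023), with 8.35 in replicate 1 and 7.46 in replicate 2. Its listed start site, further inside the gene model, was 2882 bp from that region. Around Hoxb3 and Hoxb4, 1 more peak was found in replicate 1 alone (6.30) and 1 in replicate 2 alone (6.49, 310 bp upstream of Hoxb4).

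Hoxb1 and Hoxb2 at the anterior end and Hoxb13 at the posterior end stood apart from these sites. The nearest shared region was 47008 bp from Hoxb1, 32894 bp from Hoxb2 and 82303 bp from Hoxb13, and Hoxb5, Hoxb6, Hoxb7 and Hoxb9 were 2318 to 10003 bp from one. Hoxb13, a prostate and tail gene, was the gene of all 39 farthest from a shared region. A peak 48482 bp from it was listed in replicate 1 alone (7.16) and lies within Ttll6, a tubulin-modifying enzyme gene and the single other coding gene that reaches into the window of this cluster. Ttll6 had no shared region inside it. The stretch without a shared region around Hoxb13 and Hoxb9 ran for 197.7 kb.

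The Hoxc cluster (chr15:102921131-103036856, plus strand) had the most regions, with 6 of the 7 inside it at or near Hoxc10 and Hoxc4. Hoxc10, a gene of lumbar spinal and hindlimb identity, had a region 94 bp beyond its 5′ end (chr15:102966540-102966702), with 6.05 in replicate 1 and 5.87 in replicate 2. A second at its 3′ part (chr15:102970908-102971067) had 9.34 in replicate 1 and 5.36 in replicate 2, ranking at the 79.4 percentile of the first list and the 20.0 percentile of the second. Another region lay 2771 bp upstream of Hoxc10 (6.67 in replicate 1, 7.20 in replicate 2). The local background around Hoxc10 was the highest of the 20 at its 5′ region, at 2.14 reads in replicate 1 and 2.92 in replicate 2, against a genome-wide floor of 0.676 and 1.28.

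Hoxc4, which promotes expression of the antibody-diversifying enzyme AID in B cells, held 3 shared regions, and 2 of them flanked its listed start. The upstream one (chr15:103034073-103034249, 146 to 322 bp before the start) had 5.30 in replicate 1 and 5.07 in replicate 2. The downstream one (chr15:103034538-103034682, 143 to 287 bp after it) had 8.13 in replicate 1 and 6.62 in replicate 2. The third, 3964 to 4101 bp upstream, was the weakest by the mean of both fold enrichments of the 20, with 4.86 in replicate 1 and 4.54 in replicate 2. All 3 also lie in Gm30528, a long non-coding RNA gene. Hoxc5, Hoxc6, Hoxc8, Hoxc9, Hoxc11, Hoxc12 and Hoxc13 had none inside or within 1 kb. Hoxc8 was 2879 bp from a shared region (chr15:102987541-102987660, 6.26 in replicate 1 and 6.19 in replicate 2), and Hoxc13, which acts in hair and nails, was the farthest at 35018 bp. Hoxc6 had a peak inside it in replicate 1 alone (6.66) and another 102 bp beyond its 3′ end in replicate 2 alone (5.60), at different places. The flanks held 2 regions, one 46118 bp beyond Hoxc13 (7.68 in replicate 1, 10.976 in replicate 2) and one 14906 bp beyond Hoxc4 (9.29 in replicate 1, 9.56 in replicate 2).

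Hoxc4 was the single Hox gene whose listed promoter window touched a shared region. The window is shown because it carries that overlap: the 250 bases before the start (chr15:103034145-103034394, plus strand, GRCm38.p6, RefSeq) are printed 5′ to 3′, with the 105 bases inside the shared region, as spanned by the peaks of both replicates together, in capitals. The PU.1 motif searched, GAGGAAGT or its reverse complement ACTTCCTC, occurs in these capitals, 181 bases before the start on the opposite strand. The replicate 1 peak ends 1 base before these letters, so they lie in the replicate 2 peak alone. PU.1 is a transcription factor of myeloid and dendritic cells. The same letters occur in 3.2% of all coding promoter windows.
Hoxc4: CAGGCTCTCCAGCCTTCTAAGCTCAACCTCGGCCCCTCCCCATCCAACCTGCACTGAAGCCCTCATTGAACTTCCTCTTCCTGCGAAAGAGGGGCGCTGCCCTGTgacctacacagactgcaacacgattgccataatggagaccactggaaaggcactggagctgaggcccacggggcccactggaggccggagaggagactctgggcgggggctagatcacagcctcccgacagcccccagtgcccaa

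The Hoxd cluster (chr2:74668225-74765142, plus strand) was nearly bare. Its single shared region (chr2:74724347-74724498) lay inside Hoxd4, a hindbrain patterning gene, 2369 bp downstream of the start, and inside the long gene model of Hoxd3. It had 7.16 in replicate 1 with 11 reads at the summit and 5.71 in replicate 2 with 12 reads, at the 38.4 percentile of the first list by score and the 16.7 percentile of the second. No peak of either replicate alone was added within 50 kb. Hoxd8, Hoxd9, Hoxd10, Hoxd11 and Hoxd12, which lie in order away from Hoxd4, were 16414, 24139, 29241, 37331 and 46642 bp from it, and Hoxd1 on the other side was 38482 bp away. Hoxd13, which shapes the digits, was 52744 bp from it and so fell outside the window. Evx2, the homeobox gene that adjoins Hoxd13, had no shared region closer than 46565 bp.

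The limit of 50 kb separated few genes. Just inside it were Hoxd12 at 46642 bp and Hoxb1 at 47008 bp, and just outside was Hoxd13 at 52744 bp. Hoxb13 at 82303 bp was the other gene left out. With 100 kb all 39 had a shared region, against 84.7% of all coding genes.

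Across clusters, genes with a shared region inside or within 1 kb were most often of paralog groups 3 and 4. All 4 genes of paralog group 4 (Hoxa4, Hoxb4, Hoxc4, Hoxd4) and all 3 of group 3 (Hoxa3, Hoxb3, Hoxd3) had a shared region inside or within 1 kb, as did 2 of 3 in group 10 (Hoxa10, Hoxc10). In group 8 it was Hoxb8 of 3 genes. None of the 23 genes of groups 2, 5, 6, 7, 9, 11, 12 and 13 had one. Genes of group 3 span those of group 4 in Hoxa, Hoxb and Hoxd, so both groups share regions there. Hoxa3 (44009 bp), Hoxb3 (40830 bp), Hoxd3 (36279 bp) and Hoxc4 (18760 bp) are also long, against a median of 3737 bp for Hox genes. Length leaves more room for a region inside. Within 1 kb of an end, 0 of 3 genes of group 3 and 2 of 4 of group 4 had one. The pattern was seen after the values were known and carries no test. It rested on weak sites. In the better-scoring 50% of each list 3 genes were left (7.7%), against 46.3% of all coding genes. Hoxb3 and Hoxc4 were among them, with 1 of group 4.

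**Figure D4:**
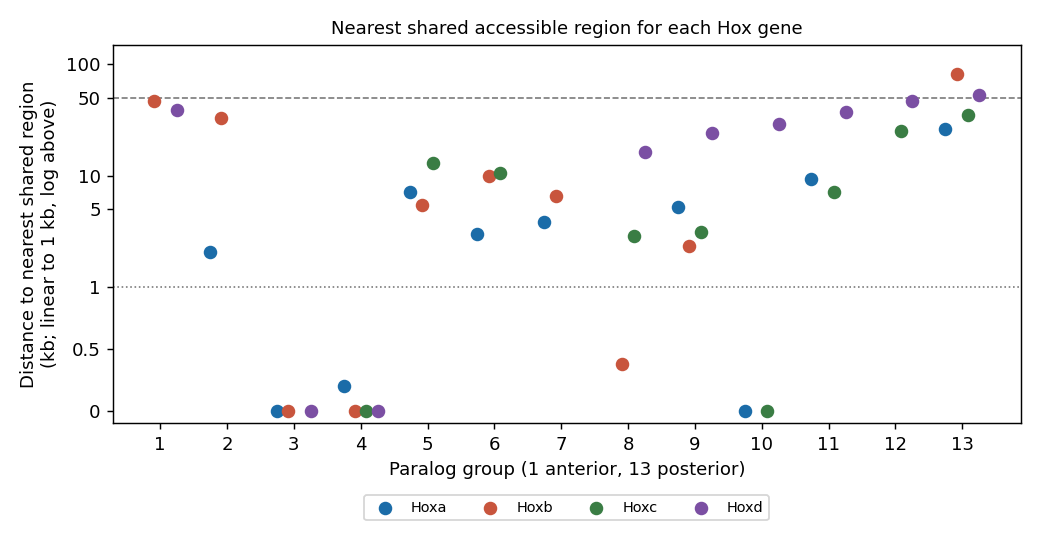
Distance in kb from each Hox gene to its nearest shared region (vertical axis, linear to 1 kb and logarithmic above) by paralog group (horizontal axis), coloured by cluster, with 1 gene not drawn. The dotted line marks 1 kb and the dashed line 50 kb; groups 3 and 4 lie wholly below the dotted line, and Hoxb13 and Hoxd13 lie above the dashed line.

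Promoter windows of 300 bases (250 before and 50 after a start) were listed for 22 Hox genes, 24 windows in all. Dense CpG marks the promoters that most cells keep open, and many Hox promoters have it. The Hox windows had a median of 4.83 CpG per 100 bases, against 4.33 over 21044 coding windows. Only the Hoxc4 window overlapped a shared region, 1 of 24 (4.2%), against 42.1% of all coding windows. Of the 12 Hox windows with at least 4.83 CpG per 100 bases, 0 overlapped one, against 70.7% of the 9953 coding windows that dense. Windows of other developmental homeobox genes that dense overlapped one in 3 of 36 cases (8.3%). Measured from the listed start, 2 of 22 Hox genes (9.1%), Hoxb4 and Hoxc4, had a shared region within 1 kb, against 49.3% of 17273 coding genes.

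**Figure D5:**
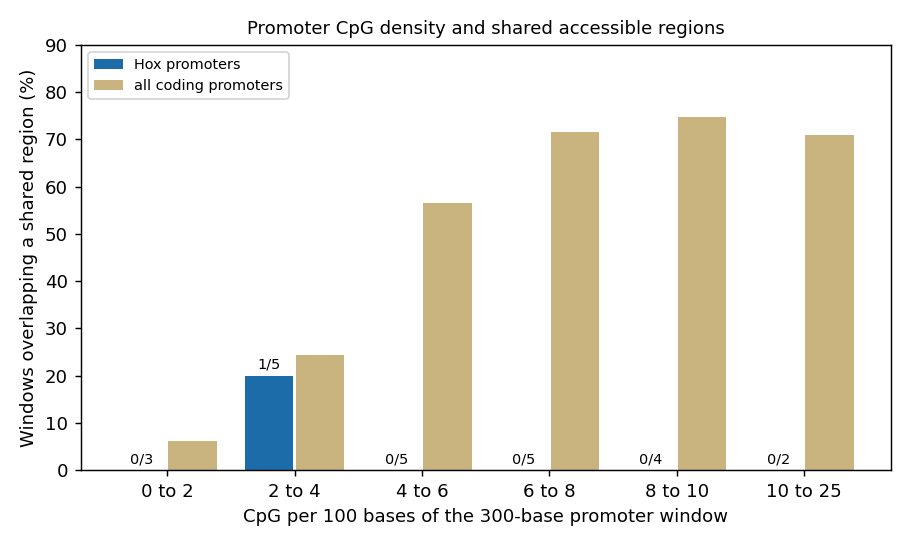
Share of promoter windows that overlap a shared region (%, vertical axis) by CpG per 100 bases (horizontal axis, lower bound included), for Hox windows (blue, with overlapping and total numbers printed) and all coding windows (sand). The coding share reaches 74.6% at 8 to 10 CpG per 100 bases, where 0 of 4 Hox windows overlap.

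The CpG-densest Hox window, of Hoxa13 with 15.0 CpG per 100 bases, is printed to set beside that of Hoxc4, which has 3.0. Its 250 bases before the start (chr6:52260881-52261130, minus strand, GRCm38.p6, RefSeq) run 5′ to 3′ with each of the 35 CpG in capitals. The window was 28120 bp from the nearest shared region.
Hoxa13: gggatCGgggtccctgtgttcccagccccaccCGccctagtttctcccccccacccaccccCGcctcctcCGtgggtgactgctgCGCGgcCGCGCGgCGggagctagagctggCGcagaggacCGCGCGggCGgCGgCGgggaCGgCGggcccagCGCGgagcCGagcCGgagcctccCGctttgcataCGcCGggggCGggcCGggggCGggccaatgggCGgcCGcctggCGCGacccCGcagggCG

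Other motifs were searched on both strands of the 24 Hox windows. The interferon-stimulated response element occurred in 0, against 3.4% of all coding windows. The PBX-HOX motif TGATNNAT, bound by Hox proteins with their PBX partners, occurred in 4 (16.7%, in Hoxa2, Hoxb1, Hoxb8 and Hoxd11), against 7.4%. TATAAA occurred in 4 (16.7%), against 12.7%, and the AP-1 motif TGANTCA, whose reverse complement is itself, in 1 (4.2%, Hoxd11), against 7.0%. Of 2 versions of the CTCF core, one occurred in 0, against 1.6%, and the other in 1 (4.2%, Hoxa11), against 0.6%. None of these matches lay in a shared region. The matches are letters in these windows and say nothing of binding.

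The clusters also carry microRNA genes, which repress Hox and other transcripts. The mature 5p strands of the Mir10 and Mir196 genes are shown because these paralogous copies sit in different clusters. The seed, bases 2 to 8, is in capitals. Mir10a (Hoxb) and Mir10b (Hoxd) share 1 seed and differ in 1 base outside it, U12A counted from the 5′ end of miR-10a-5p, and Mir196a and Mir196b share another and differ by A12C counted from that of miR-196a-5p.
mmu-miR-10a-5p: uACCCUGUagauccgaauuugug
mmu-miR-10b-5p: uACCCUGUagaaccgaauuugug
mmu-miR-196a-5p: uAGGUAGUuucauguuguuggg
mmu-miR-196b-5p: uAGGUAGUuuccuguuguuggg

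The microRNA genes had accessible sites nearby but not on them. Mir10b lay 1572 bp from the single Hoxd region and Mir10a 1286 bp from the Hoxb4 region, with a peak of replicate 2 alone 564 bp away. Of the Mir196 copies, Mir196a-2 in Hoxc was 2283 bp from the region at the 3′ part of Hoxc10, Mir196b in Hoxa was 2405 bp from the Hoxa10 region, and Mir196a-1 in Hoxb was 13648 bp from any. Mir615 in Hoxc was 15293 bp from a shared region. Of the 11 non-coding genes looked up, 6 were these short microRNA genes, of which 0 held a shared region. In all, 2 of the 11 held shared regions, among them Hoxaas3, which overlaps Hoxa3, Hoxa5 and Hoxa6, with 1. The share over all non-coding genes was not worked out, so this count has no baseline. Hotair, Hottip and Hoxaas2 held none; Hotair was 15886 bp, Hottip 30064 bp and Hoxaas2 5316 bp from the nearest. Over all annotated non-coding genes, 10 of the 20 Hox regions lay in one, against 12.8% of all shared regions. Of the 10, 4 lay in Gm30528 alone. How much of the clusters such genes cover was not measured, so the 2 shares are not on a like footing.

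Genes that act with Hox proteins or control the clusters were mostly accessible. Of 38 partners and regulators, 27 had a shared region within 1 kb of an end (71.1%), against 47.8% of all coding genes. Inside or within 1 kb it was 32 (84.2%), against 60.0% of all coding genes. The listed genes are longer, with a median of 31264.5 bp against 17330 bp, which leaves more room for a region inside. The highest end regions were at Rnf2, the ubiquitin ligase of Polycomb complex PRC1 (9.41 in replicate 1, 10.8 in replicate 2), Mllt3, a reader in the elongation machinery (9.35 in replicate 1, 10.8 in replicate 2), and Suz12, a core subunit of Polycomb complex PRC2 (8.67 in replicate 1, 11.4 in replicate 2). Next came the PRC1 genes Phc2, Pcgf1 and Cbx8, and Psip1, which tethers the MLL1 methyltransferase, with 8.46 to 9.74 in both replicates. The 11 without an end region were Kdm6a, Kdm6b, Pknox2, Rad21 and Cbx7, which had regions inside the gene, and Pbx2, Cdx1, Cdx2, Cdx4, Meis2 and Meis3, which had none inside or within 1 kb. Meis2, another partner of Hox proteins, was farthest at 279292 bp, whereas its relative Meis1 had a shared region at an end. The promoter windows of this list overlapped shared regions in 23 of 33 cases (69.7%), against 42.1% of all coding windows. They are also CpG-dense, with a median of 7.67 CpG per 100 bases; of those with at least 4.83, 22 of 26 overlapped one (84.6%), against 70.7% of coding windows that dense.

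Other homeobox developmental genes outside the clusters resembled the Hox genes at close range and not at 50 kb. Of 63, 17 had a shared region inside or within 1 kb (27.0%), beside 28.2% of Hox genes, and 39 had one within 50 kb (61.9%), beside 94.9% of Hox genes. Their median number of shared regions within 50 kb was 1, against 3 for Hox genes and 5 for all coding genes.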

How the data were processed

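ATAC-seq peak lists of 2 samples were used. Per the submitters' processing notes the tools were Trimmomatic, BWA 0.7.17, Picard 2.8.1, HOMER 4.9.1 and MACS2 with mouse build mm10; their roles, the read shift, duplicate removal and threshold are not given in the sources used here, and each can add or drop weak peaks. Columns follow the MACS2 layout, with peaks called per sample. The names of the lists carry different tags that no label explains, so the replicates may differ in more than depth. Fold enrichment, as deposited, is summit reads divided by local background, each with 1 added, which lowers it most where background is low. The authors' −log10 p and −log10 q come from the same excess, and the deposited score is −log10 q times 10, cut to a whole number. These authors' values were used for description, ranking and filtering inside each list, since the libraries differ in depth.

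Summits of a peak were joined, keeping the highest score. Summit reads were worked out from fold and Poisson p, which gave back the deposited −log10 p within 0.002 for 100% of peaks; the genome-wide background so found was 0.676 reads (replicate 1) and 1.28 reads (replicate 2). Genes, promoter windows and microRNAs came from RefSeq on GRCm38.p6, the assembly of mm10. Gene ends are the outermost of all transcripts; strand was taken from the promoter table, which lists 22 of 39 Hox genes and gives 1 strand per cluster. Python 3.11.15, numpy 2.4.6, scipy 1.17.1, pandas 2.3.3 and matplotlib 3.10.9 were used, and the overlap, distance and read calculations were tested on simulated data. With 1 group and lists of genes there is no test between conditions, so counts stand beside those over all coding genes. Named are every Hox gene with a region inside or within 1 kb, the nearest and farthest, coding neighbours, and partners and regulators with the 8 highest end regions or none; 1 Hox gene and 1 partner are not reported here by name, though counts include them. Members and lists were chosen with earlier results of these data known. Alternatives changed the overlap, peak strength, replicates and windows.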

Additional observations from a re-analysis of the deposited data

How the results depend on the processing

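Of 30 alternative values, 24 stayed within 1.5 times the reported count, or within the 95% interval of a share, and 6 moved. All 6 came from keeping the better-scoring 50% of each list, which by construction leaves fewer peaks: 19 of the 39 Hox genes then had a shared region within 50 kb, 3 had one inside or within 1 kb, 6 shared regions were left at the loci and 4 of them inside the clusters, and near Hox genes the shared part was 60.0% in replicate 1 and 66.7% in replicate 2. Over all coding genes the shares at that setting were 72.0% within 50 kb and 46.3% inside or within 1 kb. Using the peaks of 1 replicate alone gave 37 to 38 genes within 50 kb and 12 genes inside or within 1 kb (30.8%). For all coding genes the latter share was 61.4% with replicate 1 and 63.0% with replicate 2. The same peaks gave 22 to 24 regions at the loci and 19 to 20 inside the clusters. Windows of 20 and 100 kb gave 27 and 39 genes, against 72.6% and 84.7% of all coding genes. At 20 kb the share of Hox genes, 69.2%, fell below that of all coding genes. By cluster, the count of Hoxb regions moved most with the replicates, from 3 shared to 5 with replicate 1 alone. The 12th gene with either replicate alone was Hoxc6, through different peaks. The highest-scoring summits at the Hox loci held at most 28 reads, and a missing peak may be a weak one. No paired analysis was possible because the unstimulated cells are the only group with peak lists used here.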

Other observations

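Beyond the 50 kb flanks the loci differed in what came next. The Hoxd cluster, with 1 shared region inside, had 4 more shared regions between 50 and 100 kb. One overlapped Mtx2, a mitochondrial outer membrane protein gene, 60602 bp beyond Hoxd1 (9.55 in replicate 1, 12.1 in replicate 2). On the other side a region in the non-coding gene Gm39852, 61801 bp from Hoxd13, had 10.3 in replicate 1 and 13.5 in replicate 2, and one at Lnpk, a gene of endoplasmic reticulum shape, 89069 bp from Hoxd13, had 10.3 in replicate 1 and 11.6 in replicate 2. The fourth, also at Lnpk, had 6.26 in replicate 1 and 4.64 in replicate 2, below the 7.16 and 5.71 of the Hoxd4 region in both. Hoxa had 1 shared region at that distance, and Hoxb and Hoxc had 0. Out to 250 kb from the clusters the numbers beyond 50 kb were 6 for Hoxa, 5 for Hoxb, 22 for Hoxc and 4 for Hoxd.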
